A study of Mus musculus with 21 samples.

Results

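The genes described here are 10 genes that mouse macrophages use as scavenger and endocytic receptors or that are read as signs of alternative activation: Mrc1, Cd163, Msr1, Marco, Cd36, Clec10a, Stab1, Folr2, Chil3 and Retnla. They were taken by name, and all 10 were found on the symbol column of both deposited expression tables, among 50645 genes in all. RNA-seq was run on macrophages grown from bone marrow of C57Bl6/J mice, 24 weeks old, in medium with L929 cell supernatant, a source of macrophage colony-stimulating factor. The 21 libraries form 7 groups of 3.

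The fatty acid table held 12 libraries, all from mice on standard chow. The first of its groups was grown for the first 4 days with TAK242 at 200 nM and with fatty acid at 10 mM, a mix of palmitic with oleic acid at 1:3, then washed and given LPS (lipopolysaccharide) at 100 ng/ml on day 7 for 24 h. The next received the same fatty acid without TAK242 and then LPS, the third LPS alone, and the last was untreated. The Western diet table held 9 libraries: donors fed a diet high in fat, sugar and cholesterol for 24 weeks whose cells are labelled as LPS-treated, donors on that diet whose cells are labelled as controls, and a second set of untreated chow macrophages (replicates 4 to 6). No group had fatty acid or TAK242 without LPS. The labels give replicate numbers but not whether a number is an animal or a culture, so the p-values measure the spread between these libraries, which may be technical.

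Scavenger receptors bind modified lipoproteins, bacterial surfaces and dying cells, and carry them into the cell. Alternative activation is the state that interleukin 4 and interleukin 13 induce through STAT6; in mice its usual readouts include the mannose receptor, a galactose-type lectin and the secreted proteins Ym1 and RELM alpha, the products of Chil3 and Retnla. LPS acts through the receptor TLR4 and drives a different, inflammatory state, and TAK242 binds the part of TLR4 inside the cell and blocks its signal.

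Values are the deposited values, whose unit no source used here names; they behave like FPKM, fragments scaled by gene length and library size. Library sums lay between 321532 and 386023, the number of genes at 1 or more per library was 8803 to 10145, and the spacing of the low values implied a depth of 17.5 to 36.3 times 1e6 fragments. The identity of the cells was checked with 8 macrophage markers, of which 8 reached a value of 1 in each group, Lyz2 being the most abundant. Markers of dendritic cells, of eosinophils, basophils and mast cells, of B cells and of T and NK cells summed to at most 3.75, 0.790, 3.12 and 3.22 in any library. Those of platelets and megakaryocytes summed to 0.738 to 9.97 with LPS alone and to at most 1.92 in the other groups. As these are bulk samples, fewer cells of a type and less RNA per cell cannot be told apart.

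In the Western diet table the chemokine gene Ccl5, which LPS induces, went against the labels. Western diet with LPS by label had Ccl5 at 0.463, 10.5 and 6905, Western diet control had 7846, 13.7 and 10973, and chow had 2.06, 2.38 and 1.57. In the fatty acid table it was 3102 to 7141 in the 9 LPS-treated libraries and at most 0.645 untreated. The Western diet groups are therefore given by label, library by library. The change of each gene called is given with and without the 4 libraries concerned (control replicates 1 and 3 and LPS replicates 1 and 2).

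**Figure D1:**
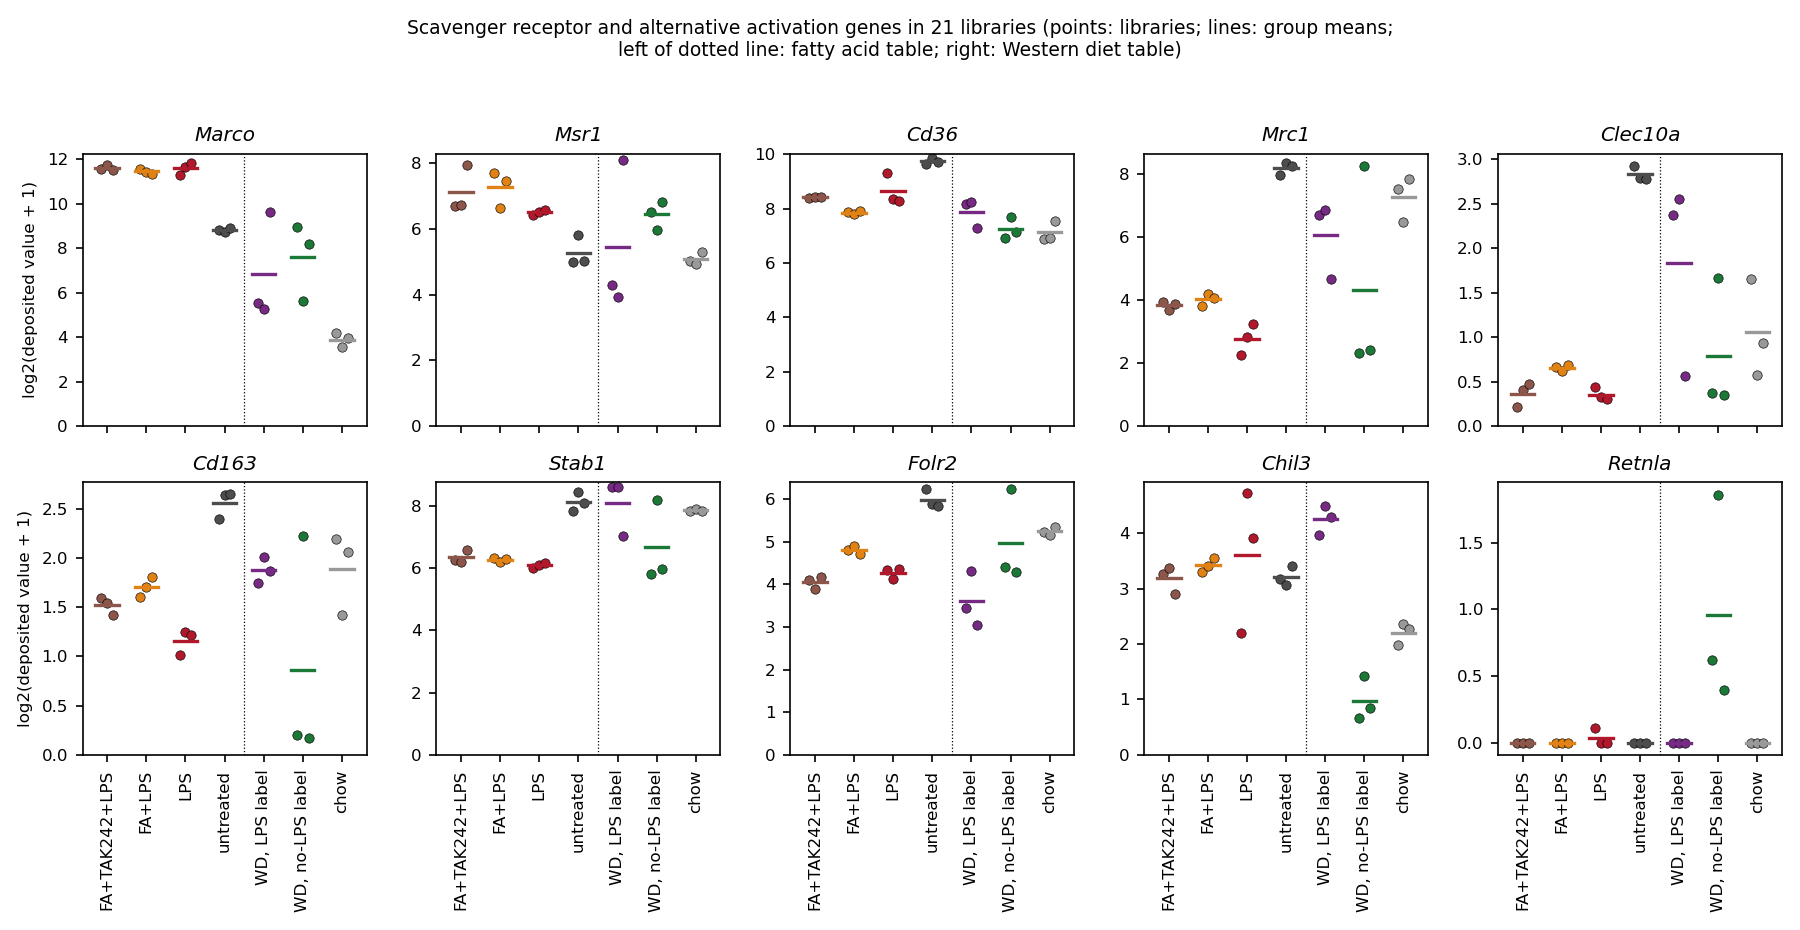
Level of each of the 10 genes in every library, as log2(deposited value + 1), with points for libraries and lines for group means. Groups left of the dotted line belong to the fatty acid table and those right of it to the Western diet table, where the libraries of a group lie far apart for most genes. Mrc1 lay at 3.82 to 17.3 in the 9 LPS-treated libraries of the fatty acid table, against 252.3 to 325.4 in its untreated libraries.

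The LPS comparison asks what a day of LPS did to these genes in chow macrophages. The class A scavenger receptor genes Marco and Msr1 rose, the mannose receptor gene Mrc1 fell to 2.08% of its untreated mean, and Clec10a, Stab1, Folr2, Cd163 and Cd36 fell. Of the 9 genes that passed the filter on low values (at least 1 in 3 or more libraries of the table), 2 rose and 6 fell, and 8 changed in all. Over all 10476 genes tested 61.7% changed, 13.8% upward and 47.9% downward. The median log2 change of the 9 was -1.40 against -0.31 for all genes tested, a shift of all genes that median-ratio scaling between libraries brought to -0.03. The 2 rises and 6 falls held after that scaling, when 24.6% of all genes were higher and 29.6% lower.

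Marco, a class A scavenger receptor that binds bacteria and particles, stood at 2496, 3226 and 3693 in the 3 LPS libraries, against 453.4, 422.9 and 483.7 in the untreated libraries. Each LPS library was far above the highest untreated one. On the log2(value + 1) scale, on which the changes here are given and which understates those of genes with low values, Marco rose by 2.77 with a standard error of 0.14 (limma, adjusted p = 3.42e-08). Msr1, the other class A receptor and a receptor for modified low-density lipoprotein, stood at 84.9, 90.0 and 94.2 with LPS, against 30.6, 54.5 and 31.1 untreated. Untreated replicate 2 was higher than the others, and the groups did not overlap. Its rise was 1.24 ± 0.36 (SE, adjusted p = 0.0120).

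The mannose receptor gene Mrc1, whose product takes up glycoproteins with mannose ends, stood at 3.82, 6.14 and 8.39 in the LPS libraries, against 252.3, 325.4 and 305.3 in the untreated ones. The change was -5.42 ± 0.21 (SE, adjusted p = 5.39e-09). Clec10a, a lectin for terminal galactose and N-acetylgalactosamine, had 0.352, 0.252 and 0.233 with LPS, against 6.61, 5.90 and 5.84 untreated, or 4.56% of the untreated mean (-2.48 ± 0.08, adjusted p = 2.07e-09). With a pseudocount of 0.1 in place of 1 its change was -4.05. Clec10a passed the filter only through the untreated libraries, where it was high, so its call adds no support beyond the values. Each LPS library was far below the untreated range for both lectin genes.

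Stab1 encodes stabilin-1, which clears acetylated lipoprotein and the matrix protein SPARC. It stood at 63.3, 67.1 and 71.3 with LPS, against 229.7, 346.7 and 273.4 untreated, a change of -2.04 ± 0.15 (adjusted p = 5.18e-07). Nt5dc2 on the other strand shares 1.09% of its exonic bases. Cd163, the receptor for haemoglobin bound to haptoglobin, had 1.02, 1.38 and 1.33 with LPS, against 4.25, 5.23 and 5.26 untreated (-1.40 ± 0.10, adjusted p = 6.96e-07). The 3 LPS libraries of both genes lay close together, at 23.7% and 25.3% of the untreated means of Stab1 and Cd163. Folr2, the folate receptor beta of resident macrophages, had 19.1, 16.4 and 19.5 with LPS, against 74.5, 58.5 and 56.4 untreated (-1.72 ± 0.12, adjusted p = 4.92e-07). Its value is uncertain: 63.1% of its 1546 exonic bases are shared with Gm10602 on the other strand, no source used here says whether the libraries keep strand, and Gm10602 itself stood at 6.36 to 7.80 with LPS and 12.7 to 19.3 untreated.

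Cd36, a class B receptor for oxidised lipoprotein and fatty acids, was the member with the smallest fall. It stood at 641.7, 326.1 and 311.8 with LPS, against 802.5, 940.8 and 830.3 untreated. LPS replicate 1 lay between the untreated libraries and the other LPS libraries, which were close to each other. The change was -1.09 ± 0.22 (adjusted p = 0.00132), and it lay between -1.42 and -0.90 with each library left out in turn.

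Chil3, which encodes the secreted chitinase-like protein Ym1, had 3.60, 25.3 and 14.1 with LPS, against 8.01, 7.39 and 9.60 untreated. The LPS libraries lay on either side of the untreated ones, and the change of 0.40 ± 0.47 did not pass (adjusted p = 0.488). Without LPS replicate 1 it was 1.10 (adjusted p = 0.00173), and without LPS replicate 2 it was -0.16. Retnla was listed at 0 in 11 of the 12 libraries of this table and at 0.0788 in LPS replicate 1, a value worth about 1.00 fragment.

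The 250 bases before the RefSeq start (GRCm38.p6) are shown for the genes with the largest fall and the largest rise, since both changed under one stimulus in opposite directions. In the files' gene models (GRCm38) Mrc1 spans bases 14229392 to 14332057 of chromosome 2 on the plus strand and Marco bases 120474538 to 120505024 of chromosome 1 on the minus strand. Both windows are read 5′ to 3′ on the gene's own strand, at chr2:14229164-14229413 for Mrc1 (plus strand) and chr1:120505025-120505274 for Marco (minus strand). Capitals mark GAGGAA, the core bound by the macrophage factor PU.1, on either strand.
Mrc1: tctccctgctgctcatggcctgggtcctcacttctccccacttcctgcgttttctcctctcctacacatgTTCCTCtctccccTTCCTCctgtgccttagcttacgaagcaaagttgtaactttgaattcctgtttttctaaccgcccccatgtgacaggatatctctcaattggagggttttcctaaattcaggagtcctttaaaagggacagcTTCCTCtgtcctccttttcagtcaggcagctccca
Marco: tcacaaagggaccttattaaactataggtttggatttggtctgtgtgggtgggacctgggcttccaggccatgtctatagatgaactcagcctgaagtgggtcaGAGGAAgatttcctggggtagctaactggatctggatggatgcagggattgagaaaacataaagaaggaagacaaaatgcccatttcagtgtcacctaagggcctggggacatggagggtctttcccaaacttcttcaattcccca

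The motif occurs 3 times in the Mrc1 window, each on the opposite strand (bases 71 to 76, 84 to 89 and 216 to 221, counted from the 5′ end), and 1 time in the Marco window on its own strand (bases 105 to 110). It is in 23.3% of 32817 RefSeq promoter windows of this length. Both strands were also searched for a STAT6 motif (TTC, any 4 bases, then GAA), which is in 5.85% of windows, and for an AP-1 motif (TGA, any base, then TCA), in 6.75%. The C/EBP motif (TTGC, any 2 bases, then AA) is in 9.57% of windows and the NF-kB motif (GGGA, any 2 bases, then TTCC) in 1.21%. The IRF motif (GAAA, any 2 bases, then GAAA) is in 2.97% and the TATA letters (TATAAA) in 12.4%. None of these 6 is in the Mrc1 or the Marco window. RefSeq windows were matched for 8 of the 10 genes, 9 windows in all, Msr1 and Clec10a having none here. The Stab1 window holds the PU.1 core and the second Folr2 window the AP-1 motif, while those of Cd163, Cd36, Chil3 and the first of Folr2 hold none of the 7 motifs.

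The other scavenger receptor genes, a list of 16 of which 9 were tested under LPS, had 2 higher and 6 lower. Cd5l, a macrophage protein with scavenger receptor domains, fell by 4.76 (adjusted p = 1.19e-08) to a mean of 2.05 with LPS, against 79.7 untreated, and the collectin receptor gene Colec12 fell by 1.82 (adjusted p = 5.68e-08). Cd68 fell by 1.13 (adjusted p = 6.25e-07). Cxcl16, a chemokine that also serves as a receptor for oxidised lipoprotein, rose by 3.02 (adjusted p = 4.51e-07). After scaling the count was 2 higher and 5 lower.

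Of the other endocytic lectin genes, 6 of 8 tested rose and 2 fell. Clec4e, the receptor Mincle for mycobacterial glycolipid, stood at a mean of 517.6 with LPS against 7.27 untreated (5.97 ± 0.27, adjusted p = 1.71e-08), and Clec4a2 rose by 2.02 (adjusted p = 6.90e-08). Ly75, the receptor DEC-205, rose by 1.67 (adjusted p = 8.31e-07), with means of 2.68 with LPS and 0.151 untreated. It passed the filter only through LPS-treated libraries, so its call adds no support beyond the values. Clec7a, the beta-glucan receptor Dectin-1, fell by 1.61 (adjusted p = 0.00102). Mgl2, the near copy of Clec10a, did not pass the filter, with at most 0.0644 with LPS and 0.147 to 0.337 untreated.

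Of 21 other alternative activation genes listed, 7 were tested, with 2 higher and 2 lower. Arg1, whose product arginase 1 breaks down arginine, stood at 85.2, 70.6 and 85.9 with LPS, against 1.74, 1.90 and 1.59 untreated (4.89 ± 0.11, adjusted p = 1.73e-10). The interleukin 1 receptor antagonist gene Il1rn rose by 3.83 (adjusted p = 3.72e-08), while the carbonyl reductase gene Cbr2 and the coagulation factor gene F13a1 fell by 3.58 and 2.87 (adjusted p = 4.77e-07 and 7.68e-07). The chemokine genes Ccl17, Ccl22 and Ccl24, which interleukin 4 induces in mouse macrophages, were among the 13 listed genes in the table that were not tested. Chil1, a relative of Chil3, rose by 7.99 (adjusted p = 1.03e-09), to a mean of 309.2 with LPS against 0.185 untreated, while the nearer copy Chil4 was at most 0.0985 in any of the 21 libraries.

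Of 14 tested genes upstream of alternative activation, 6 rose and 5 fell. Il10 rose by 2.88 (adjusted p = 8.63e-08) and Il2rg, the shared gamma chain of the interleukin 4 receptor, by 1.72 (adjusted p = 7.64e-07). The transcription factor gene Maf fell by 1.15 (adjusted p = 6.91e-06) and Il10rb, a chain of the interleukin 10 receptor, by 0.89 (adjusted p = 1.08e-05). Of 9 tested genes that mark resident macrophages with folate receptor beta, 6 fell and 2 rose. Gas6, a ligand of receptors for dying cells, fell by 5.01 (adjusted p = 7.73e-09) and Cbr2, F13a1 and Maf are on this list as well.

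Marker sums of other cells were set beside these changes. The 8 neutrophil markers summed to 117.1 to 383.4 in the LPS libraries and 32.9 to 47.7 in the untreated ones, mostly S100a8 and S100a9 transcripts, and Ly6g and Retnlg were listed at 0 in all LPS libraries. The 8 stromal markers summed to 27.0 to 53.2 with LPS and 17.7 to 27.0 untreated. The part of such cells in the changes above was not tested.

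Fatty acid before LPS was compared with LPS alone. Mrc1, Cd163, Folr2 and Clec10a stood higher with fatty acid, Cd36 lower, and Marco, Msr1, Stab1 and Chil3 did not pass. Each of the 4 higher genes was among those that LPS lowered, and with fatty acid each stayed below its untreated level. Of the 9 tested, 4 rose and 1 fell, while 21.8% of all genes rose and 15.3% fell (37.2% either way). The 4 include Clec10a, which was below 1 in every library compared and passed the filter only through the untreated group. The median of the 9 was 0.30, against 0.06 for all genes tested. Both comparisons share the LPS libraries, so values are given side by side and no relation between the changes is drawn.

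Mrc1 stood at 13.1, 17.3 and 15.9 with fatty acid and LPS, against 3.82, 6.14 and 8.39 with LPS alone. Each fatty acid library was above each LPS library (1.25 ± 0.21, adjusted p = 0.00171), and the fatty acid mean was 5.25% of the untreated mean, against 2.08% with LPS alone. Cd163 had 2.03, 2.26 and 2.50 with fatty acid and LPS, against 1.02, 1.38 and 1.33 with LPS alone (0.54 ± 0.10, adjusted p = 0.00308). That is 46.1% and 25.3% of its untreated mean.

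Folr2 had 27.0, 28.9 and 25.2 with fatty acid and LPS, against 19.1, 16.4 and 19.5 with LPS alone (0.54 ± 0.12, adjusted p = 0.00677), with the overlapping Gm10602 at 9.57 to 10.8 and 6.36 to 7.80. Clec10a had 0.586, 0.539 and 0.612 with fatty acid and LPS, against 0.352, 0.252 and 0.233 with LPS alone, all low beside the untreated 5.84 to 6.61. Its change of 0.30 ± 0.08 (adjusted p = 0.0165) was no longer past the threshold without LPS replicate 2 (adjusted p = 0.0513) or without fatty acid replicate 3 (adjusted p = 0.0530), and with a pseudocount of 0.1 it was 0.85.

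Cd36 stood at 231.5, 221.1 and 240.7 with fatty acid and LPS, against 641.7, 326.1 and 311.8 with LPS alone. The fatty acid libraries were close together and below each LPS library. The change of -0.80 ± 0.22 (adjusted p = 0.0161) rested in part on LPS replicate 1, without which it was -0.46, and it was not called without fatty acid replicate 2 (adjusted p = 0.0503) or when the fit held just these 6 libraries (adjusted p = 0.0776). Cd36 was thus lowest of the 4 groups where fatty acid had been given without TAK242, at 26.9% of its untreated mean.

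Msr1 had 207.5, 98.3 and 173.3 with fatty acid and LPS, against 84.9, 90.0 and 94.2 with LPS alone. All 3 fatty acid libraries were higher but spread widely, and the change of 0.76 ± 0.36 did not pass (adjusted p = 0.124). Marco, at 3055, 2783 and 2630 against 2496, 3226 and 3693, and Stab1, at 79.6, 72.8 and 77.6 against 63.3, 67.1 and 71.3, had differences of -0.14 ± 0.14 and 0.19 ± 0.15 (adjusted p = 0.465 and 0.334). Chil3 had 8.79, 9.60 and 10.8 with fatty acid and LPS, against 3.60, 25.3 and 14.1 with LPS alone (-0.19 ± 0.47, adjusted p = 0.775). Without LPS replicate 1 it passed at -0.90 (adjusted p = 0.0136), and without LPS replicate 2 it turned to 0.36.

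**Figure D2:**
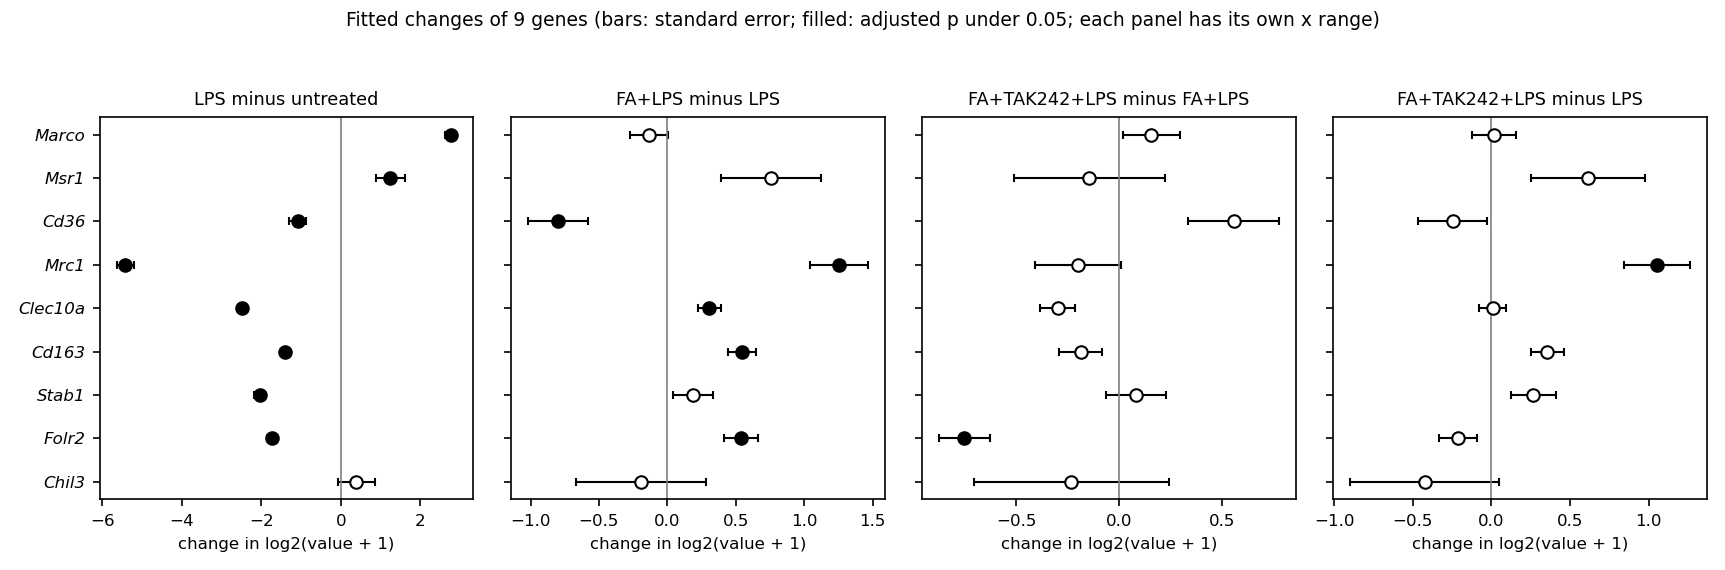
Fitted change in log2(value + 1) of the 9 tested genes in 4 comparisons of the fatty acid table, with bars for 1 standard error and filled points for an adjusted p under 0.05. Each panel has its own x range. Mrc1 is at -5.42 for LPS against untreated and at 1.25 for fatty acid before LPS against LPS alone.

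Among the other lists, 4 of 9 scavenger receptor genes rose and 1 fell with fatty acid. Cd5l stood at 24.3, 24.5 and 25.3 with fatty acid and LPS, against 1.17, 2.01 and 2.95 with LPS alone (3.12 ± 0.21, adjusted p = 3.31e-05), and Stab2, the near copy of Stab1, had 0.902, 1.96 and 1.94 against 0.0141, 0.0287 and 0.0245 (1.32 ± 0.28, adjusted p = 0.00515). Of 9 resident macrophage genes 6 rose and 1 fell: Ccl8, Cbr2 and Mertk, the receptor for dying cells, rose by 3.21, 1.98 and 1.42 (adjusted p = 0.000556, 0.000566 and 0.000976), and the platelet factor gene Pf4 fell by 2.68 (adjusted p = 3.31e-05). Of 14 upstream genes 5 rose and 2 fell. The interleukin 4 receptor gene Il4ra stood at 60.0, 58.8 and 65.3 with fatty acid and LPS, against 14.2, 18.7 and 26.6 with LPS alone and 11.8, 12.6 and 11.8 untreated (1.63 ± 0.19, adjusted p = 0.000418), and Il10ra and Il10rb rose by 0.67 and 0.55 (adjusted p = 0.00173 and 0.00191).

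The lectin genes other than the 2 described above were mostly lower with fatty acid, 5 of 8 against 2 higher. Ly75, Clec4e, Clec4d and Clec4n fell by 1.35, 1.94, 0.96 and 1.65 (adjusted p = 0.000195, 0.000808, 0.00357 and 0.00362). Ly75 was low in both groups, with means of 0.435 with fatty acid and LPS and 2.68 with LPS alone, and its filter limit applies here too. Of 7 alternative activation genes 2 rose and 3 fell. The elastase gene Mmp12 fell by 3.35 (adjusted p = 0.000286) and Arg1 by 0.72 (adjusted p = 0.00120), and Il1rn rose by 1.18 (adjusted p = 0.00165). Chil1 fell by 1.35 (adjusted p = 0.00251). Neutrophil markers summed to 78.2 to 87.9 and stromal markers to 13.2 to 16.3 in the fatty acid libraries, against 117.1 to 383.4 and 27.0 to 53.2 with LPS alone, and their part in these changes was not tested.

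The next comparison asks what TAK242 changed when added to the fatty acid, with LPS given to both groups later. Of the 9 tested, 1 changed. Folr2 had 16.1, 13.9 and 17.2 with TAK242, against 27.0, 28.9 and 25.2 with fatty acid and LPS (-0.75 ± 0.12, adjusted p = 0.0115), and Gm10602 stood at 7.74 to 9.41 and 9.57 to 10.8. Over all genes 4.69% changed, 3.01% upward and 1.68% downward. The Folr2 call was lost without fatty acid replicate 2 (adjusted p = 0.0551) and without TAK242 replicate 2 (adjusted p = 0.0623).

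Cd36, Clec10a and Cd163 were not called. Cd36 had 336.7, 342.2 and 339.5 with TAK242, against 231.5, 221.1 and 240.7 with fatty acid and LPS (0.55 ± 0.22, adjusted p = 0.165), and it was called in a fit of these 6 libraries by themselves (adjusted p = 0.0109). Clec10a had 0.157, 0.321 and 0.386 with TAK242, against 0.586, 0.539 and 0.612 (-0.30 ± 0.08, adjusted p = 0.0729). Cd163 had 2.01, 1.92 and 1.67 against 2.03, 2.26 and 2.50 (-0.19 ± 0.10, adjusted p = 0.309). Mrc1 was not called either, at 14.3, 11.8 and 13.8 with TAK242 against 13.1, 17.3 and 15.9 (-0.20 ± 0.21, adjusted p = 0.604).

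Marco had 3002, 3467 and 2968 with TAK242, Stab1 76.7, 72.4 and 95.8, and Chil3 8.66, 9.36 and 6.52, with differences of 0.16 ± 0.14, 0.08 ± 0.15 and -0.23 ± 0.47 against fatty acid and LPS (adjusted p = 0.537, 0.784 and 0.810). Msr1 had 102.8, 103.9 and 244.4 with TAK242, of which replicate 3 was far above the others (-0.14 ± 0.36, adjusted p = 0.847). In the other lists, 1 of 9 scavenger receptor genes rose and 2 fell, 2 of 8 lectins rose, 2 of 7 alternative activation genes rose and 1 fell, 1 of 14 upstream genes fell, and 1 of 9 resident macrophage genes rose and 2 fell. Cd5l fell by 2.11 (adjusted p = 0.00098), and Pf4, Ly75 and Mmp12 rose by 1.73, 0.91 and 2.46 (adjusted p = 0.00124, 0.00561 and 0.00693), each call holding with any of the 6 libraries left out. Ly75 was low in both groups, with means of 1.71 with TAK242 and 0.435 with fatty acid and LPS. The remaining calls in these lists were less stable: those of Ccl8, Fn1 and Il10 were lost in 6 of 6 such fits, and those of Cbr2, Clec4e, Lrp1 and Stab2 in 5 of 6. Neutrophil markers summed to 63.5 to 86.9 and stromal markers to 22.0 to 26.2 with TAK242, against 78.2 to 87.9 and 13.2 to 16.3 with fatty acid and LPS, so that the stromal sums did not overlap. Their part in these changes was not tested.

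Fatty acid with TAK242 was also set against LPS alone. Mrc1 was called, at 14.3, 11.8 and 13.8 against 3.82, 6.14 and 8.39, a change of 1.05 ± 0.21 (adjusted p = 0.0283). It was the 1 call among 9, with 5.89% of all genes changed, 4.05% upward and 1.84% downward (4.45% and 4.63% after scaling). Each TAK242 library was above each LPS library, and the mean was 4.52% of the untreated mean. Leaving out any one of LPS replicates 1 and 2 and TAK242 replicates 1 and 3 ended the call (adjusted p from 0.0583 to 0.115). So did testing all genes without a filter (adjusted p = 0.0714) and fitting these 6 libraries by themselves (adjusted p = 0.123).

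Cd163 was next, at 2.01, 1.92 and 1.67 against 1.02, 1.38 and 1.33 (0.36 ± 0.10, adjusted p = 0.0625). Folr2 and Clec10a, which stood higher with fatty acid alone, had differences of -0.21 ± 0.12 and 0.01 ± 0.08 (adjusted p = 0.265 and 0.965), and Cd36, Marco, Msr1, Stab1 and Chil3 by -0.25 ± 0.22, 0.02 ± 0.14, 0.61 ± 0.36, 0.27 ± 0.15 and -0.43 ± 0.47 (adjusted p from 0.241 to 0.946). Of the other lists, Lrp1 and Cd5l rose among 9 scavenger receptor genes (0.93 and 1.01, adjusted p = 0.0254 and 0.0293). Their calls were lost in 3 and 4 of 6 fits with 1 library left out. Both were also lost without a filter and with the 6 libraries by themselves. Siglec1 rose among 8 lectins, Arg1 fell among 7 alternative activation genes, Il4ra and Maf rose and Il10 fell among 14 upstream genes, and Maf rose and Pf4 fell among 9 resident macrophage genes. Each of these calls was lost when at least 1 of the 6 libraries was left out. Neutrophil and stromal markers summed to 63.5 to 86.9 and 22.0 to 26.2 with TAK242, against 117.1 to 383.4 and 27.0 to 53.2 with LPS alone, neither overlapping, and their part in these changes was not tested.

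Across the 4 groups of the fatty acid table, Mrc1, Cd163 and Clec10a thus had the same order of means. The untreated group was highest, followed by fatty acid before LPS, fatty acid with TAK242 before LPS, and LPS alone. Neighbours overlapped for Mrc1 between the fatty acid groups and for Clec10a between TAK242 and LPS alone, and for Cd163 none did. How often genes at large separate this way was not counted. Folr2 differed in that fatty acid with TAK242, at a mean of 15.7 ± 1.68 (SD, n = 3), lay below LPS alone, at 18.3 ± 1.68, with overlap. Marco showed no separation between the 3 LPS-treated groups, whose means were 3146 ± 279.2 with fatty acid and TAK242, 2823 ± 215.5 with fatty acid and 3138 ± 603.5 with LPS alone.

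The genes whose levels ran most like each member over the 12 libraries were taken by Pearson's r of log2(value + 1) among 3717 named genes with a mean of at least 10. These libraries fall into treated and untreated groups, so r describes the shared treatment and depth as well, and no p is given. Mrc1 ran closest to Gas6 (r = 0.997) and Spdl1, Cd163 to Sptbn1 (0.988) and Oxct1, and Clec10a to Msl3 (0.995) and Hmgb1. Marco ran closest to Ly6i (0.997) and the complement gene Cfb, Msr1 to D17Wsu92e (0.931) and Dock4, and Cd36 to Actn1 (0.990) and Cd9. Stab1 ran closest to Tmpo (0.989) and Folr2 to Lamtor3 (0.984). Chil3 ran closest to S100a9 (0.938) and then Mcl1 (0.804).

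Both S100a9 and S100a8 encode subunits of calprotectin and were among the neutrophil markers. S100a9 stood at 5.69, 43.5 and 32.0 in LPS replicates 1 to 3, where Chil3 stood at 3.60, 25.3 and 14.1. S100a8 did not share this pattern, with 371.9, 114.5 and 78.1 in the same libraries. Across the other groups of the table the level of S100a9 was 10.7 to 23.0 and that of Chil3 was 6.52 to 10.8. In the Western diet table both genes were high in the libraries labelled with LPS and low in those labelled as controls. S100a9 stood at 25.9, 23.3 and 20.4 with LPS by label, against 4.95, 10.7 and 3.32 in Western diet control. Chil3 stood at 14.6, 21.5 and 18.6, against 0.588, 1.69 and 0.789. In chow the mean of S100a9, 19.0, was nearer to the libraries labelled LPS, while Chil3, at 2.93, 4.16 and 3.84, was nearer to those labelled control. S100a8 had means of 46.5 in Western diet with LPS by label and 42.7 in Western diet control. The part of neutrophils in the Chil3 values was not tested.

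**Figure D3:**
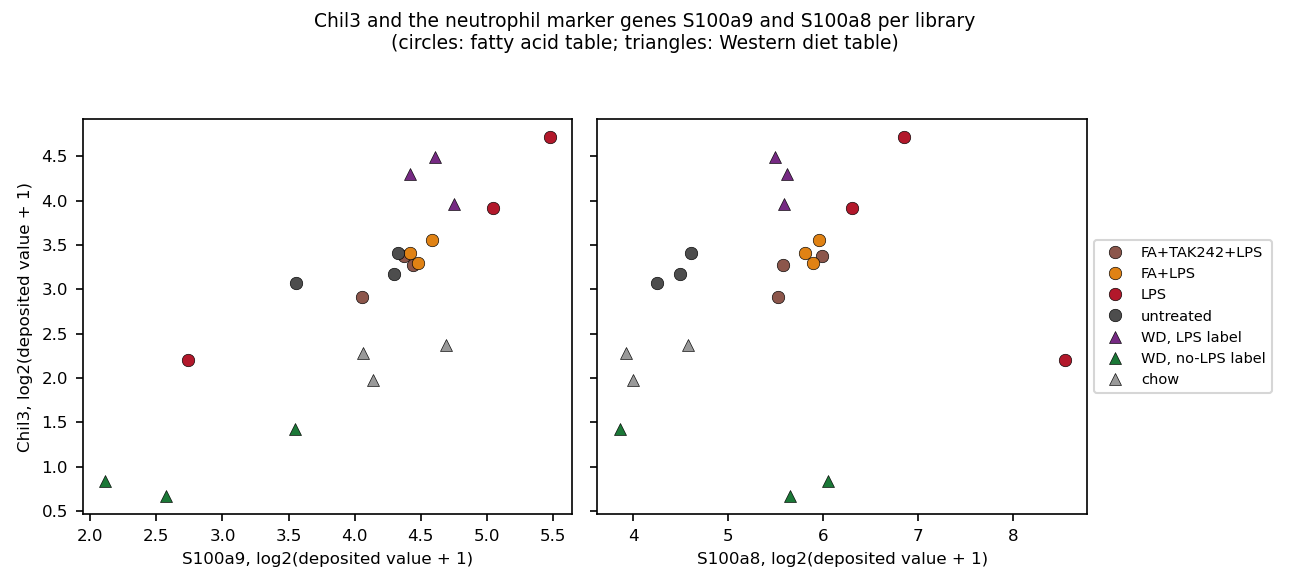
Chil3 against the neutrophil marker genes S100a9 (left) and S100a8 (right), each as log2(deposited value + 1), with a point per library, circles for the fatty acid table and triangles for the Western diet table. LPS replicate 1 has the lowest Chil3 (3.60) and S100a9 (5.69) of the fatty acid table and its highest S100a8 (371.9).

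The Western diet comparisons ask how the donor's diet, and LPS after it, moved these genes. Among the libraries labelled Western diet control, Marco stood at 494.3, 48.1 and 294.4, against 17.1, 10.6 and 14.5 in chow. Mrc1 stood at 4.02, 302.9 and 4.34, against 181.8, 88.2 and 228.6 in chow. Control replicates 1 and 3 were thus at about 35.0 and 20.9 times the chow mean of Marco and at 0.0242 and 0.0261 times that of Mrc1, while control replicate 2 was above the chow range in both. Stab1 (55.7, 292.9 and 62.1 against 226.4, 237.9 and 230.3 in chow) and Cd163 (0.152, 3.66 and 0.128 against 3.57, 1.69 and 3.18) split the same way between these libraries. Clec10a had 0.291, 2.16 and 0.274 against 2.16, 0.488 and 0.916, and Msr1 90.8, 61.6 and 111.3 against 31.2, 29.6 and 38.1.

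No member was called between Western diet control by label and chow (limma, 0 of 9, of which Marco and Chil3, 2 of 9, had an unadjusted p under 0.05, with 0.232% of all genes called and 2825 of 10331 at an unadjusted p under 0.05; 0.0678% were higher and 0.165% lower). Marco came to 3.70 ± 1.22 (adjusted p = 0.183), Mrc1 to -2.95 ± 1.48 (adjusted p = 0.203) and Chil3 to -1.23 ± 0.25 (adjusted p = 0.146). Without control replicate 2, which left the libraries with high Ccl5, 5 were called: Marco at 4.69, Mrc1 at -4.91, Stab1 at -1.96, Cd163 at -1.70 and Chil3 at -1.45 (adjusted p = 0.0133, 0.00235, 0.00975, 0.00232 and 0.00245). The count over all 10331 genes ranged from 8 to 5838 with 1 library left out. The 5 calls are therefore not read as particular to these genes. Leaving out the 4 libraries keeps control replicate 2 alone and takes it to vary like the other groups, so no call is given. Marco was then at 1.72, Mrc1 at 0.97, Folr2 at 0.99 and Chil3 at -0.78.

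Among the libraries labelled Western diet with LPS, replicates 1 and 2 had low Marco and high Mrc1, and replicate 3 the reverse. Marco stood at 45.8, 38.2 and 792.1, against 494.3, 48.1 and 294.4 in Western diet control. Mrc1 stood at 102.6, 115.2 and 24.8, against 4.02, 302.9 and 4.34, and Stab1 at 387.0, 393.4 and 130.0, against 55.7, 292.9 and 62.1. In each of these genes the libraries with high Ccl5 lay on one side of those with low Ccl5 whatever their label. Msr1 had 18.7, 14.2 and 268.7, against 90.8, 61.6 and 111.3. Clec10a had 4.17, 4.87 and 0.481, against 0.291, 2.16 and 0.274, and Cd163 had 2.37, 3.03 and 2.65, against 0.152, 3.66 and 0.128. Cd36 was less spread, at 284.5, 305.0 and 153.5 against 118.7, 207.6 and 139.2, with 117.3, 120.6 and 187.7 in chow.

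**Figure D4:**
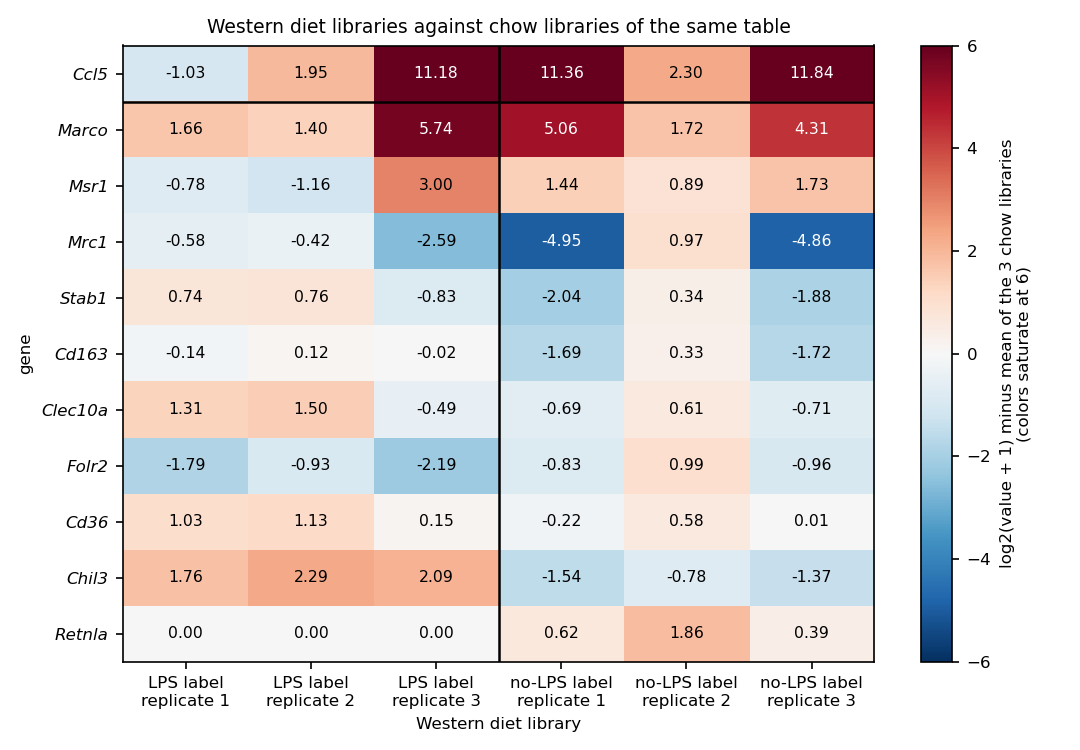
Western diet libraries of both labels as differences in log2(value + 1) from the mean of the 3 chow libraries of the same table, with Ccl5 on top, genes down the page and libraries across. Marco is highest and Mrc1 lowest in the 3 libraries with high Ccl5, while Chil3 and Retnla divide by label.

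By label, 1 of the 9 tested changed between Western diet with LPS and Western diet control (0.958% of all genes, 0.678% higher and 0.281% lower). It was Chil3, at 14.6, 21.5 and 18.6 with LPS by label, against 0.588, 1.69 and 0.789 in Western diet control and 2.93, 4.16 and 3.84 in chow. Each library labelled LPS was above and each one labelled control below the chow range, whatever its Ccl5. The change was 3.27 ± 0.25 (adjusted p = 0.00223), and without the 4 libraries it was 2.87. The call did not hold in a fit of the 6 libraries by themselves (adjusted p = 0.0563) or with the replicate number as a block (adjusted p = 0.155). Stromal markers also divided by label, with sums of 4.16 to 5.71 in Western diet with LPS, 8.07 to 9.12 in Western diet control and 1.85 to 2.89 in chow. Neutrophil markers summed to 73.3 to 79.3, 25.3 to 70.5 and 33.6 to 53.2 in the same order of groups. Their part in the values of Chil3, Retnla and Mgl2 was not tested.

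Leaving out the 4 libraries sets LPS replicate 3 against control replicate 2 and takes each lone library to vary like the chow group. The changes are therefore given without a call. Marco was then higher by 4.02 and Msr1 by 2.11. Mrc1, Stab1 and Folr2 were lower by 3.56, 1.17 and 3.19. With all libraries the corresponding changes by label were -0.77, -1.001, 1.75, 1.42 and -1.37, and none of these 5 was called (adjusted p from 0.248 to 0.730).

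Folr2 had 9.94, 18.9 and 7.29 in Western diet with LPS by label, against 20.3, 74.6 and 18.5 in Western diet control and 36.4, 35.0 and 39.6 in chow. All libraries labelled LPS were below chow, and the overlapping Gm10602 stood at 8.13 to 9.56 there, against 8.04 to 18.8 in Western diet control and 14.7 to 14.9 in chow. Of the other receptor genes, Marco was above the chow range in all 6 Western diet libraries, whichever their label.

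Retnla (chromosome 16, bases 48842552 to 48844461 on the plus strand, GRCm38), a classic transcript of alternative activation in mice, was above 0 in 4 of the 21 libraries, and 3 of these were the libraries labelled Western diet control. They had 0.533, 2.64 and 0.312, worth about 9.54, 45.5 and 3.83 fragments, while Retnla was listed at 0 in the 3 libraries labelled Western diet with LPS and in the 3 of chow. It did not pass the filter. In the fit without one, over 24017 genes, it stood at 0.96 ± 0.34 against chow and at -0.96 ± 0.34 for LPS against control by label (adjusted p = 0.298 and 0.324). Of its near copies, Retnlb was listed at 0 throughout, and Retnlg had 1.68, 1.98 and 0.607 in Western diet with LPS by label, 0 in each Western diet control library, and 0.453, 0.123 and 0.148 in chow.

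The 250 bases before the Retnla start (chr16:48842359-48842608, plus strand, GRCm38.p6, RefSeq) are shown because this was the one of the 9 windows that held the STAT6 letters.
Retnla: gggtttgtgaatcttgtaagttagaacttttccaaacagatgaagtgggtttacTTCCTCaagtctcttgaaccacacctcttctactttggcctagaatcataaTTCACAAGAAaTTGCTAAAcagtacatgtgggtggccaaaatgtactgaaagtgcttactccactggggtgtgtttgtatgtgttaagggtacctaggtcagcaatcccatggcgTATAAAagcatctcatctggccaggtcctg

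Capitals mark, from the 5′ end, GAGGAA on the opposite strand (bases 55 to 60), the STAT6 match (106 to 115), the C/EBP match (117 to 124) and TATAAA (221 to 226), none of which overlaps another. The files' gene model starts inside this window, upstream of the RefSeq start. A match is a description of letters and was not tested for binding.

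Mgl2, the near copy of Clec10a, divided by label, with 0.264, 0.570 and 0.0726 in Western diet with LPS, 1.79, 7.68 and 0.973 in Western diet control, and 0.304, 0.361 and 0.335 in chow. It did not pass the filter either, and without one it stood at 1.44 ± 0.51 for Western diet control against chow (adjusted p = 0.298). Arg1 was the 1 alternative activation gene of 8 tested that was called in this comparison (4.64 ± 0.61, adjusted p = 0.0284). It stood at 49.2, 25.0 and 46.4 in Western diet control against 0.401, 0.821 and 0.556 in chow. The call was lost after scaling (adjusted p = 0.0576), without a filter (adjusted p = 0.0592) and in 5 of 6 fits with 1 library left out. Without the 4 libraries the Arg1 change was 4.04. No gene of the other scavenger receptor, lectin, upstream and resident macrophage lists was called there (limma, 0 of 9, 8, 14 and 9 tested, with 3, 4, 3 and 3 at an unadjusted p under 0.05). For LPS against control by label, 2 of 9 scavenger receptor genes rose, Cd5l by 3.30 and Stab2 by 1.89 (adjusted p = 0.0319 and 0.0391). Stab2 had means of 3.06 with LPS by label, 0.00357 in Western diet control and 0.0146 in chow. It passed the filter only through the libraries labelled LPS, where it was high, so its call adds no support beyond the values. The calls of Cd5l and Stab2 were each lost in 4 of 6 fits with 1 library left out. Each was also lost without a filter, with the 6 libraries by themselves and with the replicate block. Without the 4 libraries the changes were 1.90 and 1.18. The other 4 lists, lectins, alternative activation, upstream and resident macrophage genes, had 0 called (limma, with 1, 5, 5 and 4 at an unadjusted p under 0.05).

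The untreated chow macrophages of the tables were set side by side as a description, since the tables may have been normalised separately and were not tested against each other. Marco had a mean of 14.1 ± 3.26 (SD, n = 3) in chow replicates 4 to 6 of the Western diet table and 453.3 ± 30.4 in chow replicates 1 to 3 of the fatty acid table, which is 32.1 times as high. The difference of -4.91 in log2(mean value + 1) was matched or passed in size by 0.11% of 10008 genes. These were at 1 or more in all 3 chow libraries of at least 1 of the tables, and their median was 0.01. Cd36 had 141.9 ± 39.8 and 857.9 ± 73.1, and Clec10a 1.19 ± 0.868 and 6.11 ± 0.430, differences of -2.59 and -1.70. Stab1 (231.6 ± 5.85 and 283.3 ± 59.1) and Msr1 (33.0 ± 4.53 and 38.7 ± 13.7) were near each other. All 9 genes were lower in the Western diet table, and 6 of them lay within the 5th to 95th percentile of all genes, -1.02 to 0.80.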

How the data were processed

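RNA was sequenced from bone marrow-derived macrophages, and 21 libraries in 7 groups of 3 were analysed from 2 deposited tables. The deposited values are treated as a score, since no source used here names their unit; the authors' low values step in whole fragments per gene length, and strand use is not given in the sources used here. The submitters' processing notes name HISAT2 2.0.5 as well as Trim Galore 0.4.1, FastQC 0.11.5 and CASAVA 1.8.2, and both mm10 and mm9 without saying where each was used; the gene coordinates in the files equal those of GENCODE M21 on GRCm38. In the 2 tables, 36 and 35 displaced entries were left out, and Retnla, Mgl2 and other genes under the filter were not tested.

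Within each table limma 3.58.1 (R 4.3.3) was run with a mean-variance trend on log2(value + 1) for genes at 1 or more in at least 3 libraries (10476 and 10331 genes). All libraries of a table shared 1 estimate of the spread, Benjamini-Hochberg adjustment ran over all genes tested, and an adjusted p under 0.05 was called. A call adds no support beyond the values for a gene that passed the filter only through the group where it was high. No fit crossed the tables. The fit was tested on simulated data. Tables and figures used Python 3.11.15, pandas 2.3.3, NumPy 2.4.6 and matplotlib 3.10.9. The alternatives were no filter, a minimum of 5, a pseudocount of 0.1, median-ratio scaling, a fit of the 6 libraries compared, each library left out, the replicate number as a block, and the Western diet table without 4 libraries whose Ccl5 goes against their label. The 10 genes, the gene lists and the tests were chosen with earlier results of these data known, so that no count over them is independent evidence. The named list genes were, per list, up to 4 called ones with the lowest adjusted p.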

Additional observations from a re-analysis of the deposited data

How the results depend on the processing

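The counts of members called kept within 1.5 times of the value given for LPS against untreated and for fatty acid before LPS against LPS alone under each alternative run. For TAK242 with fatty acid against fatty acid before LPS the count of 1 became 2 with only the 6 libraries compared, and for TAK242 with fatty acid against LPS alone the count of 1 became 0 with no filter applied, as it did with those 6 libraries by themselves (0). Leaving out 1 library gave 0 to 1 in both. For Western diet control by label against chow, leaving out 1 library gave 0 to 5 in place of 0. For Western diet with LPS by label against control, the count of 1 became 0 with only the 6 libraries. With 1 library left out it was 1 to 4, and over all genes such fits called 18 to 4086. The 4 came without control replicate 2, which adds Cd163 (1.69), Mrc1 (3.71) and Stab1 (2.18). The cause of these shifts was not tested.

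With the replicate number as a replicate block the member counts were 8, 5, 1 and 1 in the fatty acid table and 0 for Western diet with LPS by label against control, where Chil3 was lost (adjusted p = 0.155), and it changed no other member call. Neither the labels nor this check shows that the numbers pair the libraries. Deviations from group means correlated at -0.081 to 0.20 in 18 same-numbered pairs of the fatty acid table, with 1 pair over 0.1, and at -0.67 to 0.76 in 3 pairs of the Western diet table, with 2 over 0.1. Of the libraries with such a partner, 7 of 12 and 3 of 6 correlated best with their own number. For Western diet control against chow alone, no paired fit could be made, since these groups share no replicate numbers.

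Directions that turned belonged to members not called with all libraries. Without the 4 libraries Marco (4.02), Mrc1 (-3.56), Msr1 (2.11) and Stab1 (-1.17) turned for Western diet with LPS by label against control. There Cd163 (-0.35), Cd36 (-0.43) and Clec10a (-1.10) also turned. Against chow, the same omission turned Cd163 (0.33), Clec10a (0.61), Folr2 (0.99), Mrc1 (0.97) and Stab1 (0.34). Median-ratio scaling turned Folr2 there (0.051), and Clec10a (-0.0091) and Marco (-0.042) for TAK242 with fatty acid against LPS alone, where a pseudocount of 0.1 also turned Clec10a (-0.0031). Leaving out 1 library gave Chil3 at -0.16 to 1.10 for LPS against untreated, at -0.90 to 0.36 for fatty acid before LPS and at -1.13 to 0.13 for TAK242 against LPS alone. It gave Msr1 at -0.56 to 0.077 and Stab1 at -0.040 to 0.16 for TAK242 against fatty acid. For TAK242 against LPS alone it gave Cd36 at -0.43 to 0.090, Clec10a at -0.048 to 0.083 and Marco at -0.14 to 0.14, and for Western diet control against chow Cd36 at -0.11 to 0.34, Clec10a at -0.70 to 0.038 and Folr2 at -0.90 to 0.081.

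Counts over all genes moved by more than 1.5 times as follows. The Western diet fits without the 4 libraries leave 1 library in a group, so no count from them is given, for members or for all genes. LPS against untreated called 4303 genes with a minimum of 5, against 6463. TAK242 against fatty acid called 276 without a filter, 1110 with only the 6 libraries, 745 after scaling and 63 to 305 with 1 library left out, against 491. TAK242 against LPS alone called 88, 2, 951 and 1 to 1784 under the same alternatives, against 617. Western diet control against chow called 41 without a filter, 12 with a minimum of 5 and 8 to 5838 with 1 library left out, against 24. Western diet with LPS by label against control called 58 with a minimum of 5, 2 with only the 6 libraries and 218 after scaling, against 99. It called 0 with the block and 18 to 4086 with 1 library left out. Retnla rests on about 9.54, 45.5 and 3.83 fragments in the libraries where it was found, each group holds 3 libraries, and the label conflict touches every Western diet count.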
